A study of Mus musculus with 16 samples.

Results

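The mast cell genes *Cpa3*, *Cma1*, *Tpsb2*, *Tpsab1*, *Mcpt4*, *Hdc*, *Ms4a2*, *Fcer1a* and *Gata2* were followed in sciatic nerve arrays. They were chosen by name, and all 9 were measured, out of 19505 genes with a symbol on the array. The nerves came from *Becn1* cKO mice (conditional knockout, *Becn1* fl/fl with a Cre transgene) and from control mice, which the labels call wild-type and which carried *Becn1* fl/fl or fl/+ without Cre. There were 4 arrays of cKO nerves at 2 months, 4 of control nerves at 2 months, 4 of cKO nerves at P10 (10 days after birth) and 4 of control nerves at P10, with 1 sample per array. The deletion was directed to Schwann cells, so mast cells and the other cells of the nerve were not the target of the deletion. The labels do not say whether each array is a separate mouse, so that the p-values measure the spread between these samples.

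Mast cells are resident immune cells that settle in connective tissue, including the sheaths of peripheral nerves, and complete their maturation there under stem cell factor, the ligand of the KIT receptor. Their granules hold tryptases, chymases, carboxypeptidase and histamine, which are released when IgE on the high-affinity receptor is crosslinked. Tryptase, chymase and carboxypeptidase together mark the connective tissue type of mast cell, and GATA factors are known to drive many mast cell genes.

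The letters to which GATA factors bind were therefore looked for in the 250 bases before each start site, as the letters GATA with an A or a T before them and an A or a G after them, on both strands. RefSeq promoters (GRCm38.p6) were at hand for 7 of the 9 genes, without *Tpsb2* and *Tpsab1*. At least 1 match was found in 6 of these 7 genes. By promoter, 6 of the 8 of these genes held a match (75%), and 26.5% of the 32851 promoters of the table. *Gata2* itself, with 2 promoters in the table, had no such letters in either window. The stretches below run 5′ to 3′ on the strand of the gene, which is the minus strand for all 6, and end at the base before the start site. They are shown for the genes with a match, and the capitals mark the matches. The stretches are chr3:20242182-20242331 for *Cpa3*, chr14:56062311-56062460 for *Mcpt4*, chr14:55944676-55944825 for *Cma1*, chr2:126618679-126618928 for *Hdc*, chr19:11623720-11623969 for *Ms4a2* and chr1:173227230-173227379 for *Fcer1a*.
*Cpa3*: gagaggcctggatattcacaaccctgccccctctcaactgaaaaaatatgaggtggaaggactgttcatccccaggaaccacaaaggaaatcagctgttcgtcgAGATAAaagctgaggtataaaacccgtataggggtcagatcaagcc
*Mcpt4*: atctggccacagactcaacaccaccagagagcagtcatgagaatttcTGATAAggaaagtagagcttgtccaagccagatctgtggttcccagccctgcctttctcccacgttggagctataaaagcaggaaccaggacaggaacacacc
*Cma1*: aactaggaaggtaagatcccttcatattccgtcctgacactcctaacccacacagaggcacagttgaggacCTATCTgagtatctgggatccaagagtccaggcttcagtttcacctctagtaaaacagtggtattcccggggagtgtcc
*Hdc*: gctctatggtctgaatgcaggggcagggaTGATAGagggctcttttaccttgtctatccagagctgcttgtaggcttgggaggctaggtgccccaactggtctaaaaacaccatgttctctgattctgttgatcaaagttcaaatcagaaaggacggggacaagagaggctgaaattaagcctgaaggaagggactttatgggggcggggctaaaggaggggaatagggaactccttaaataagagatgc
*Ms4a2*: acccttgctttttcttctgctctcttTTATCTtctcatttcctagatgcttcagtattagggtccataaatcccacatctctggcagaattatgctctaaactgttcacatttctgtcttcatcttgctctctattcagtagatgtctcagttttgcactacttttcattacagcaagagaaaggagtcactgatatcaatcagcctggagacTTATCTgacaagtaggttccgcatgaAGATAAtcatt
*Fcer1a*: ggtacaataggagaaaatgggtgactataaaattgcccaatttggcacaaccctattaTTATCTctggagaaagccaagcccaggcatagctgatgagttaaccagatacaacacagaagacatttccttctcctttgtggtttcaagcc
By its first base on the strand shown, counted back from the start site, the match of *Cpa3* stood at position -46, that of *Mcpt4* at -103, of *Cma1* at -79, of *Hdc* at -221 and of *Fcer1a* at -92. *Ms4a2* held 3 matches, at -224, -37 and -11. A match is a description of the letters, and binding was not measured in these data.

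The level of *Becn1* in cKO nerves was below that in control nerves, without overlap at either age, by 0.26 at 2 months (limma adjusted p = 0.0312) and by 0.35 at P10 (adjusted p = 0.0397) on the log2 scale. Arrays correlated at 0.975 to 0.994 within groups and at 0.929 to 0.977 between groups. The mean of 10 skeletal muscle markers was 11.70 in control P10 replicate 4, against 6.36 to 9.29 in cKO P10 nerves and 7.02 to 9.33 in the other control P10 nerves. All values below are log2 values from the robust multiarray average (RMA), and a level is not comparable between genes, because each gene has its own probes. A gene was called when its Benjamini-Hochberg adjusted p over all 19505 genes was under 0.05. RNA was taken from whole nerve, in which fewer mast cells and less RNA per mast cell cannot be told apart.

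At 2 months 3 of the 9 genes were lower in cKO nerves (*Tpsb2*, *Mcpt4* and *Gata2*) and 1 was higher (*Hdc*), while 15.5% of all genes were called lower and 18.5% higher, 34% in all. At P10 only *Cpa3* was called lower and none was called higher, against 7.44% of all genes lower and 5.48% higher, 12.9% in all. The median log2 change of the 9 genes was -0.20 at 2 months and -0.34 at P10, beside -0.02 and 0.00 over all genes. The 1 gene of 9 lower at P10 and the 1 of 9 higher at 2 months were near the share of all genes or under it, and the 3 of 9 lower at 2 months were above that share by a small number of genes.

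**Figure D1:**
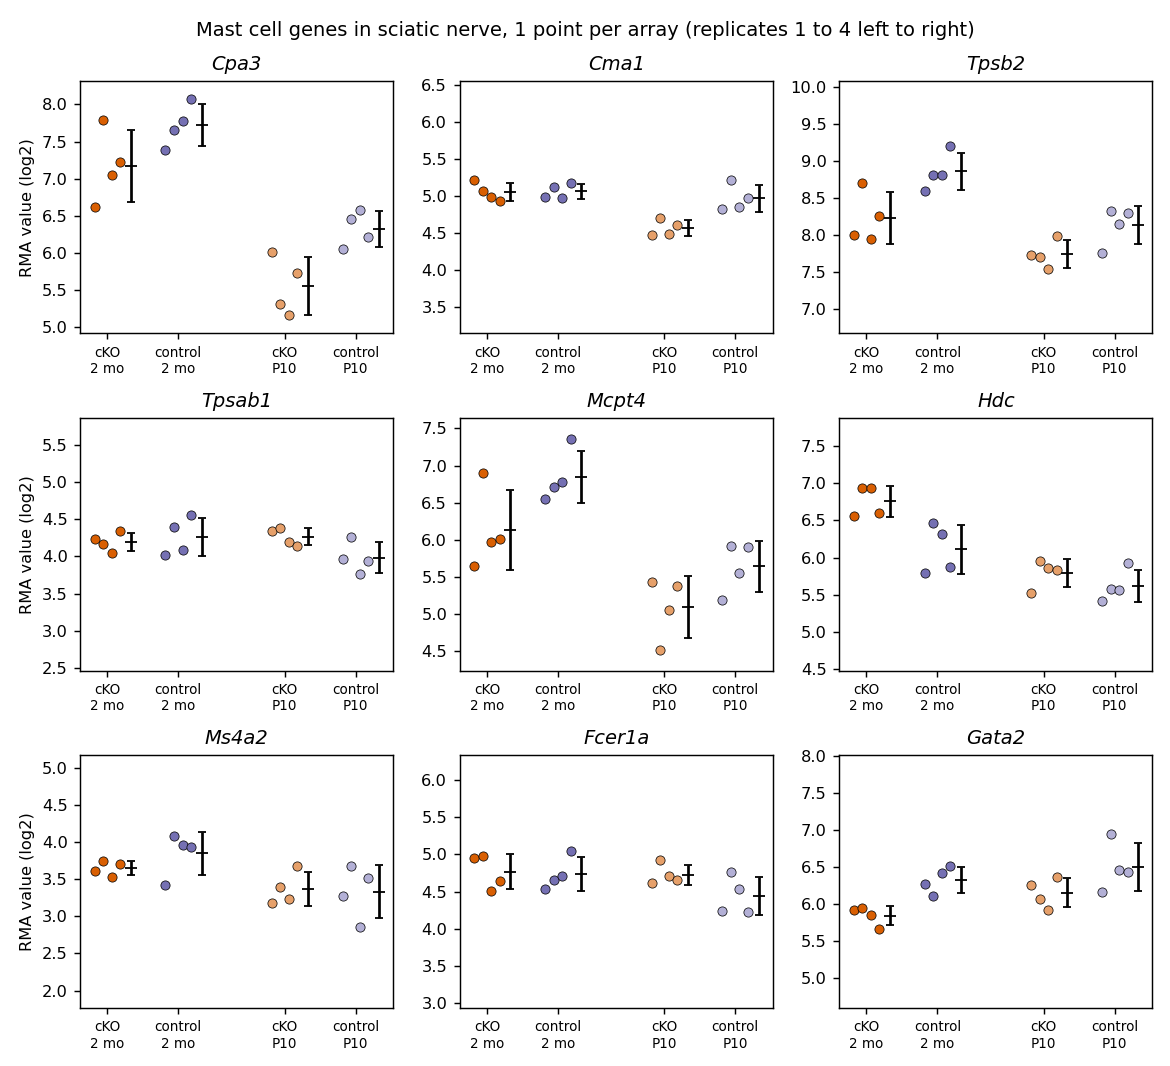
RMA values (log2, vertical axis) of the 9 mast cell genes on each of the 16 arrays, with cKO left of control and 2 months left of P10; bars give the mean and SD of 4 arrays, and every panel spans the same number of log2 units. *Cpa3* and *Mcpt4* stand above their P10 values at 2 months in both genotypes, and *Hdc* at 2 months is the gene with all cKO arrays above all control arrays.

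*Cpa3* encodes mast cell carboxypeptidase A, which is stored with the chymases in the granule. At 2 months its values were 6.62, 7.79, 7.05 and 7.23 in cKO nerves, against 7.38, 7.65, 7.77 and 8.07 in control nerves. At P10 they were 6.01, 5.30, 5.16 and 5.72 in cKO nerves, against 6.05, 6.46, 6.58 and 6.21 in control nerves. At P10 all cKO arrays lay below all control arrays, whereas at 2 months 1 cKO array, replicate 2, lay within the control values. The log2 change at P10 was -0.77 (standard error 0.19, 95% interval -1.18 to -0.36, limma adjusted p = 0.014), a level 0.586 times that of control nerves. At 2 months it was -0.54 (standard error 0.20, adjusted p = 0.0501), just short of the call. The call at P10 was lost without cKO P10 replicate 2, cKO P10 replicate 3 or control P10 replicate 3 (adjusted p = 0.0528, 0.0517 and 0.0514, with a range of 0.00479 to 0.0528 over 17 alternatives), and the change at 2 months was called in 7 of 17 alternatives, among them without cKO 2 months replicate 2 (-0.75, adjusted p = 0.0044) and without control 2 months replicate 1 (-0.66, adjusted p = 0.0213), with a range of 0.0044 to 0.165.

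*Tpsb2* encodes the tryptase of connective tissue mast cells. At 2 months it was measured at 8.0, 8.71, 7.95 and 8.26 in cKO nerves, against 8.60, 8.81, 8.81 and 9.20 in control nerves. At P10 the values were 7.72, 7.71, 7.54 and 7.99 in cKO nerves, against 7.76, 8.33, 8.14 and 8.30 in control nerves. Only cKO replicate 2 reached into the control values at 2 months, and at P10 control replicate 1 lay among the cKO values. *Tpsb2* was lower in 2-month cKO nerves by a log2 change of -0.63 (standard error 0.16, 95% interval -0.97 to -0.29, limma adjusted p = 0.00644), a level 0.647 times that of control nerves, and this call held in all 17 alternatives. At P10 the change was -0.39 (adjusted p = 0.0951), and it passed the threshold without control P10 replicate 1 (-0.52, adjusted p = 0.0212, range over alternatives 0.0212 to 0.232).

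*Mcpt4* encodes the chymase that in mouse connective tissue mast cells does much of the chymotrypsin-like cleavage. At 2 months its values were 5.65, 6.90, 5.96 and 6.02 in cKO nerves, against 6.54, 6.71, 6.78 and 7.36 in control nerves. At P10 they were 5.43, 4.52, 5.05 and 5.37 in cKO nerves, against 5.19, 5.92, 5.56 and 5.90 in control nerves. Again cKO replicate 2 was the 2-month cKO array that lay among the controls, and the P10 groups overlapped. The log2 change at 2 months was -0.72 (standard error 0.23, limma adjusted p = 0.0257), which was 0.608 times the control level, and at P10 it was -0.55 (adjusted p = 0.125). The call at 2 months was lost without cKO 2 months replicate 1, 3 or 4 or control 2 months replicate 4 (adjusted p = 0.089, 0.0731, 0.0649 and 0.0782, with 0.00106 to 0.089 over 17 alternatives).

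*Cma1*, which encodes a further mast cell chymase, and *Tpsab1*, a tryptase gene related to *Tpsb2*, were dimmer in array signal. *Cma1* was at 4.94 to 5.22 in cKO nerves and 4.97 to 5.18 in control nerves at 2 months, with a change of -0.01 (95% interval -0.28 to 0.26, adjusted p = 0.971). At P10 its 4 cKO values, 4.48, 4.70, 4.48 and 4.61, lay below the control values of 4.83, 5.21, 4.85 and 4.98. The change of -0.40 missed the threshold (limma adjusted p = 0.0769), but was called when all 16 arrays shared a fit (adjusted p = 0.0312, range over alternatives 0.0312 to 0.194). *Cpa3* and *Cma1* were thus the 2 of 9 genes whose P10 arrays did not overlap, all lower in cKO nerves, as were 9.14% of all genes, and none was higher without overlap, as were 7.73% of all genes.

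*Tpsab1* was at 4.04 to 4.34 in cKO nerves and 4.02 to 4.56 in control nerves at 2 months, with a change of -0.07 (95% interval -0.37 to 0.24). At P10 it was at 4.14 to 4.38 in cKO nerves and 3.77 to 4.26 in control nerves, with a change of 0.28 (95% interval -0.01 to 0.57, adjusted p = 0.229). In RefSeq *Tpsab1* is a transcribed pseudogene in the C57BL/6J reference strain, and how far its probes read the related *Tpsb2* is not known here. The same holds for the chymase genes *Cma1* and *Mcpt4*, so the split of signal between these relatives is uncertain.

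*Hdc* encodes histidine decarboxylase, the enzyme that makes histamine. At 2 months its values were 6.56, 6.94, 6.94 and 6.60 in cKO nerves, against 5.80, 6.47, 6.32 and 5.87 in control nerves. At P10 they were 5.52, 5.95, 5.85 and 5.83 in cKO nerves, against 5.41, 5.57, 5.57 and 5.92 in control nerves. All cKO arrays lay above all control arrays at 2 months, as for 17.8% of all genes, and the P10 groups overlapped. *Hdc* was higher in 2-month cKO nerves by a log2 change of 0.65 (standard error 0.16, 95% interval 0.30 to 1.00, limma adjusted p = 0.00616), a level 1.56 times that of control nerves, in all 17 alternatives. At P10 the change was 0.17 (adjusted p = 0.578).

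*Hdc* is also expressed by other myeloid cells, including neutrophils, and some markers of such cells were higher at 2 months. Of 9 neutrophil markers measured, 3 were higher in 2-month cKO nerves and none lower, namely *Retnlg* by 1.42, *S100a8* by 1.26 and *S100a9* by 0.79. The other 6 were not called, at changes from -0.73 (*Ngp*) to 0.31 (*Cxcr2*), and the median change of the 9 was 0.09. The mean log2 level of the 9 was 5.44 to 5.62 in cKO nerves and 4.90 to 5.66 in control nerves. Of 9 macrophage markers, 7 were higher and 1 lower, and their mean level was 9.34 to 9.54 in cKO nerves against 8.04 to 8.46 in control nerves. None of 7 eosinophil markers was called, and of 6 basophil markers only *Itga2* was, lower by 1.09, while *Mcpt8*, a basophil protease, was at 4.23 to 4.62 in cKO nerves and 4.33 to 4.75 in control nerves. The part of these cells in the level of *Hdc* was not tested.

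*Ms4a2* and *Fcer1a* encode the beta and alpha chains of the high-affinity IgE receptor. *Ms4a2* had the lowest values of the 9 genes, 3.53 to 3.75 in cKO nerves and 3.42 to 4.08 in control nerves at 2 months, and 3.18 to 3.68 in cKO nerves and 2.86 to 3.68 in control nerves at P10. Its change was -0.20 at 2 months (95% interval -0.51 to 0.11, adjusted p = 0.331) and 0.04 at P10 (95% interval -0.33 to 0.41, adjusted p = 0.93). Without control 2 months replicate 1, the lowest of its group, the change at 2 months was -0.34 (adjusted p = 0.0477, range over alternatives 0.0477 to 0.594). *Fcer1a* was at 4.51 to 4.97 in cKO nerves and 4.53 to 5.05 in control nerves at 2 months, and at 4.62 to 4.92 in cKO nerves and 4.22 to 4.77 in control nerves at P10. Its change was 0.03 at 2 months (95% interval -0.30 to 0.36) and 0.29 at P10 (95% interval -0.04 to 0.61, adjusted p = 0.284). Neither chain was called at either age, and the groups overlapped for both.

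*Gata2* encodes a transcription factor needed for mast cell development, which endothelial cells also express. At 2 months it was at 5.92, 5.94, 5.85 and 5.66 in cKO nerves, against 6.27, 6.11, 6.42 and 6.51 in control nerves. At P10 the values were 6.26, 6.07, 5.92 and 6.37 in cKO nerves, against 6.17, 6.95, 6.45 and 6.43 in control nerves. The groups did not overlap at 2 months, with all cKO arrays lower, as for 15.5% of all genes, and did overlap at P10. *Gata2* was lower at 2 months by a log2 change of -0.49 (standard error 0.13, 95% interval -0.76 to -0.21, limma adjusted p = 0.00847), a level 0.714 times that of control nerves, in all 16 alternatives that could be run. At P10 the change was -0.34 (adjusted p = 0.241).

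Endothelial markers were lower as well, 4 of 9 at 2 months and 8 of 9 at P10, with none higher. Their mean level was 6.97 to 7.32 in cKO nerves and 7.48 to 8.0 in control nerves at 2 months, and 7.66 to 7.91 in cKO nerves and 8.40 to 8.79 in control nerves at P10. *Kdr*, a receptor for vascular endothelial growth factor, was lower by 0.98 at 2 months and by 0.88 at P10. At 2 months 5 of the 9 markers were not called, among them *Pecam1* at -0.19, *Cdh5* at -0.27 and *Emcn* at -0.10. The median change of the 9 was -0.29 at 2 months and -0.73 at P10. The part of the endothelial cells in the level of *Gata2* was not tested.

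Whether the difference between cKO and control nerves changed with age was tested as an interaction over all 16 arrays. None of the 9 genes was called (limma, over all genes), where 7.69% of all genes were called higher and 4.59% lower (12.3% in all), and only *Cma1* had an unadjusted p under 0.05 (difference of the changes 0.39, adjusted p = 0.165). The call of *Cpa3* at P10 alone, and those of *Tpsb2*, *Mcpt4*, *Hdc* and *Gata2* at 2 months alone, are therefore not shown to differ between the ages. For *Cpa3* the 95% interval of the difference ran from -0.41 to 0.86, and for *Mcpt4* from -0.90 to 0.56.

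**Figure D2:**
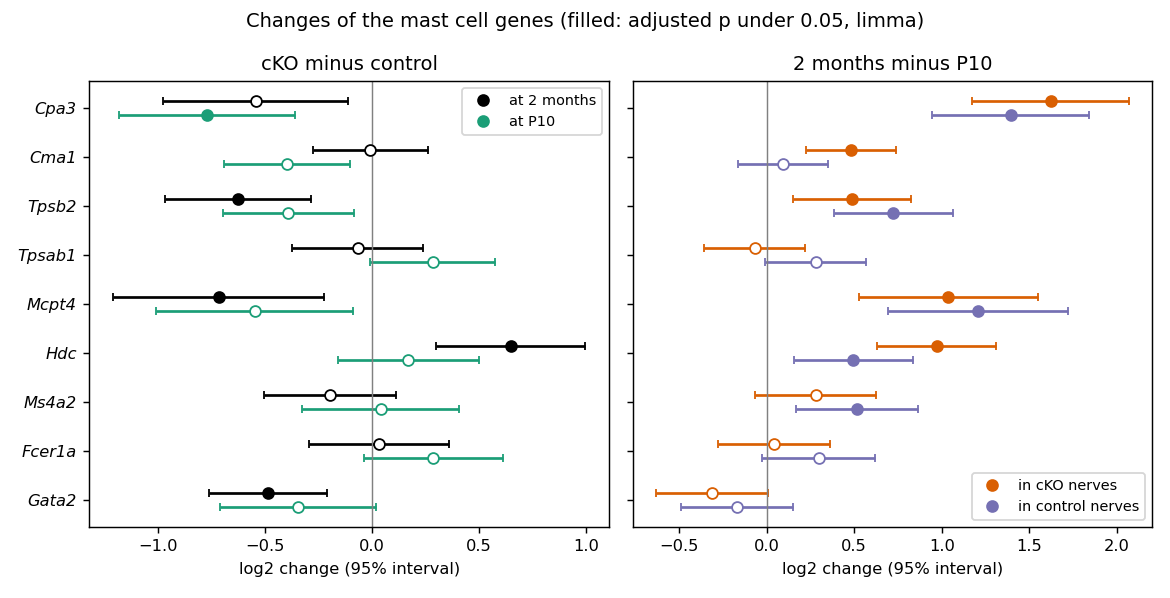
Log2 changes of the 9 genes with 95% intervals from limma, cKO minus control at each age (left) and 2 months minus P10 in each genotype (right); filled points passed an adjusted p under 0.05. Between genotypes the 4 changes called at 2 months and the 1 called at P10 are between -0.77 and 0.65, and with age *Cpa3* and *Mcpt4* changed by more than 1 in both genotypes.

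Changes with age were tested within each genotype. In cKO nerves 5 were higher at 2 months than at P10 (*Cpa3*, *Cma1*, *Tpsb2*, *Mcpt4* and *Hdc*) and none was lower, against 16.1% of all genes higher and 13.8% lower (29.9% in all). In control nerves 5 were higher (*Cpa3*, *Tpsb2*, *Mcpt4*, *Hdc* and *Ms4a2*) and none was lower, against 13.8% higher and 15.2% lower (29% in all). The median change of the 9 genes was 0.48 in cKO nerves and 0.49 in control nerves, beside -0.05 and -0.02 over all genes.

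*Cpa3* rose the most, with means at 2 months and P10 of 7.17 ± 0.48 and 5.55 ± 0.39 in cKO nerves (SD, n = 4 each) and of 7.72 ± 0.28 and 6.32 ± 0.24 in control nerves. The log2 change was 1.62 in cKO nerves (limma adjusted p = 5.23e-06), or 3.08-fold, and 1.39 in control nerves (adjusted p = 3.78e-05), or 2.63-fold. *Mcpt4* rose by 1.04 in cKO nerves (adjusted p = 0.00258) and by 1.21 in control nerves (adjusted p = 0.000718). For *Cpa3* the mean fell in the order control 2 months, cKO 2 months, control P10, cKO P10, and so it did for *Tpsb2*, *Mcpt4* and *Cma1*. The step between cKO nerves at 2 months and control nerves at P10 was without overlap for *Cpa3*, whereas for *Tpsb2* (7.95 to 8.71 against 7.76 to 8.33), *Mcpt4* (5.65 to 6.90 against 5.19 to 5.92) and *Cma1* (4.94 to 5.22 against 4.83 to 5.21) the arrays overlapped.

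*Hdc* rose by 0.97 in cKO nerves (limma adjusted p = 8.96e-05), without overlap, and by 0.49 in control nerves (adjusted p = 0.0261). *Tpsb2* rose by 0.49 in cKO nerves (adjusted p = 0.0277) and by 0.72 in control nerves (adjusted p = 0.00173). *Cma1* rose by 0.48 in cKO nerves (adjusted p = 0.00468), whereas its change in control nerves was 0.09 (adjusted p = 0.635), and *Ms4a2* rose by 0.52 in control nerves (adjusted p = 0.0228), with a change of 0.28 in cKO nerves (adjusted p = 0.233). The arrays of both ages did not overlap for 4 genes in cKO nerves (*Cpa3*, *Cma1*, *Mcpt4* and *Hdc*) and for 3 in control nerves (*Cpa3*, *Tpsb2* and *Mcpt4*), all higher at 2 months, where 16.2% and 12.5% of all genes did so. *Gata2*, *Fcer1a* and *Tpsab1* were not called with age in either genotype, at changes between -0.31 and 0.30.

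Other cell markers moved with age in the same nerves. Of 9 macrophage markers 8 were higher at 2 months in cKO nerves and 8 in control nerves, and of 9 endothelial markers 5 were lower in cKO nerves and 9 in control nerves. Skeletal muscle markers were lower for 4 of 10 in cKO nerves and for 9 of 10 in control nerves, with mean levels of 5.57 to 7.66 at 2 months and 6.36 to 9.29 at P10 in cKO nerves, and of 5.77 to 7.31 at 2 months and 7.02 to 11.70 at P10 in control nerves. The part of these shifts in the levels of the 9 genes was not tested.

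Several of the smaller age calls depended on single arrays. That of *Hdc* in control nerves was lost without control P10 replicate 1, 2 or 3 (adjusted p = 0.0781, 0.0551 and 0.0569) or control 2 months replicate 2 or 3 (adjusted p = 0.109 and 0.0861; 0.0106 to 0.109 over all alternatives). That of *Ms4a2* was lost without control P10 replicate 1 or 3 (adjusted p = 0.0511 and 0.107) or control 2 months replicate 2, 3 or 4 (adjusted p = 0.0787, 0.0618 and 0.0536; 0.00431 to 0.107 over all alternatives). That of *Tpsb2* in cKO nerves was lost without cKO P10 replicate 1, 2 or 3 (adjusted p = 0.0549, 0.0596 and 0.0849) or cKO 2 months replicate 2 or 4 (adjusted p = 0.13 and 0.0611), the change without the 2-month replicate 2 being 0.33, and after quantile normalization (adjusted p = 0.0552; 0.00802 to 0.13 over all alternatives). The rises of *Cpa3* and *Mcpt4* in both genotypes, of *Tpsb2* in control nerves and of *Cma1* and *Hdc* in cKO nerves held in all alternatives run.

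Within groups, *Cpa3*, *Tpsb2* and *Mcpt4* varied together from array to array. Over the deviations of the 16 arrays from their group means, Pearson's r was 0.85 between *Tpsb2* and *Mcpt4*, 0.83 between *Cpa3* and *Mcpt4* and 0.77 between *Cpa3* and *Tpsb2*, as a description of arrays that share their normalization. Of the 36 pairs of the 9 genes, 14 had an r over 0.5 and 4 were below 0, with a median of 0.37. The other granule protease genes varied less with these 3, *Cma1* at an r of -0.03 with *Cpa3*, 0.14 with *Mcpt4* and 0.40 with *Tpsb2*, and *Tpsab1* at 0.20 with *Cpa3*, 0.22 with *Mcpt4* and 0.37 with *Tpsb2*. *Cma1* had an r of 0.63 with *Tpsab1* and of 0.71 with *Fcer1a*. The r of *Hdc* with the other 8 genes ran between -0.14 with *Tpsab1* and 0.46 with *Ms4a2*.

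The same arrays were high or low for many of the genes. In 2-month cKO nerves replicate 2 was the highest for 7 of 9 genes, and in 2-month control nerves replicate 4 was the highest and replicate 1 the lowest for 7 of 9 each. In P10 control nerves replicate 2 was the highest for 7 genes and replicate 1 the lowest for 6, whereas in P10 cKO nerves no array was the highest or lowest for more than 4. The 2-month cKO replicate 2 stood above its group mean by 0.62 on average over *Cpa3*, *Tpsb2* and *Mcpt4*, about as far as the groups lay apart. The 10 other genes whose deviations were most like the mean deviation of the 9 were *Fcer2a*, *Klhl36*, *Tapbp*, *Gm13304*, *Zc3hav1*, *Olr1*, *Rph3al*, *Pabpn1l*, *Cldn5* and *Gm10591*, with r between 0.85 and 0.90 over 16 arrays. They are the top of a ranking of 19505 genes on few arrays, where high r arise in unrelated genes too, and were not tested.

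**Figure D3:**
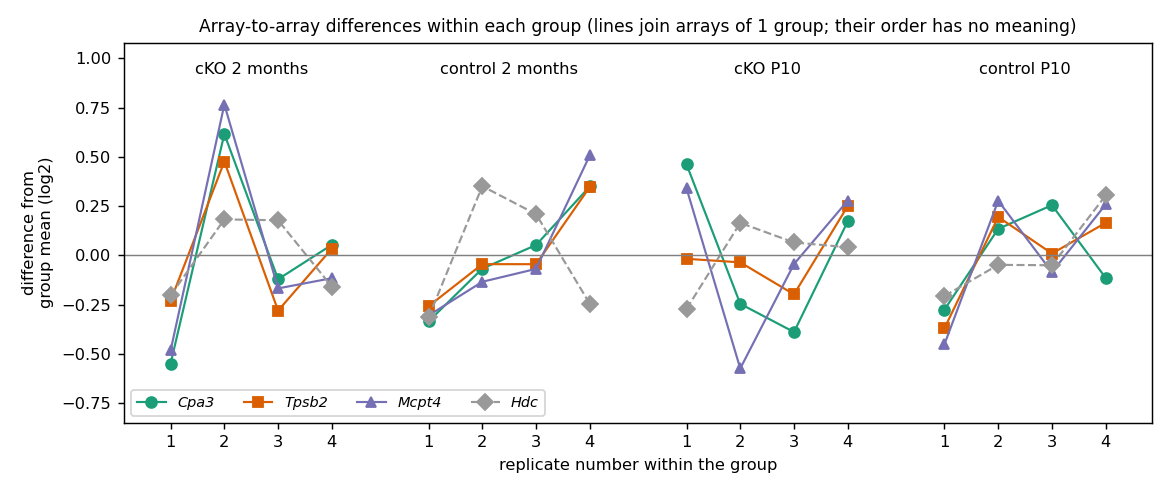
Difference of each array from its group mean (log2, vertical axis) for *Cpa3*, *Tpsb2*, *Mcpt4* and *Hdc*, by replicate number within the 4 groups; lines join the arrays of a gene and their order has no meaning. The 3 protease genes stand above the mean together in cKO 2 months replicate 2 and control 2 months replicate 4, where *Hdc* was measured at 6.94 and 5.87, beside group means of 6.76 and 6.11.

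Other genes of mast cells did not share 1 direction. Of 9 further granule proteases of mast cells and basophils, such as *Mcpt1*, *Mcpt2*, *Cma2* and *Ctsg*, none was called at 2 months and only *Mcpt9* was lower at P10, by 0.36 (limma adjusted p = 0.0385), at a low level of 2.69 to 2.96 in cKO nerves and 3.09 to 3.26 in control nerves. None of these 9 was called with age in either genotype. Their median change was -0.09 at 2 months and 0.00 at P10.

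Of 19 further mast cell identity genes measured, 2-month cKO nerves had 2 at a higher and 3 at a lower level, and P10 cKO nerves 2 at a higher and 1 at a lower level. *Kit*, the receptor for stem cell factor and the defining surface marker of mast cells, was higher, where the called proteases were lower. It was at 7.81, 8.22, 8.24 and 8.28 in cKO nerves, against 6.19, 6.79, 6.25 and 6.89 in control nerves at 2 months, and at 9.15 to 9.31 in cKO nerves, against 6.58 to 6.99 in control nerves at P10. Its change was 1.61 at 2 months (limma adjusted p = 2.27e-06) and 2.47 at P10 (adjusted p = 1.23e-08). *Kit* is not particular to mast cells, since melanocytes, for example, express it too, and which cells of the nerve gave this signal was not tested.

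*Hpgds*, the prostaglandin D synthase of mast cells and macrophages, was higher by 1.86 at 2 months and by 0.64 at P10. *Cd34*, a surface protein of progenitors, vessels and mast cells, was lower by 0.79 at 2 months and by 0.74 at P10. *Mitf*, a transcription factor of mast cells and pigment cells, was lower by 0.69 at 2 months, with an uncalled change of -0.27 at P10. *Slc18a2*, which loads amines into granules, was not called, at changes of -0.27 at 2 months and -0.23 at P10. Neither *Hpgds* nor *Cd34* is specific to mast cells in a nerve that also holds macrophages, vessels and fibroblasts.

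*Mrgprb1*, a receptor of the Mas-related family, was called at 2 months in the direction of *Tpsb2* and *Mcpt4*. At 2 months it was at 5.24, 6.16, 5.44 and 5.62 in cKO nerves, against 5.90, 6.98, 6.55 and 7.15 in control nerves, and at P10 at 3.93 to 4.56 in cKO nerves, against 4.32 to 5.0 in control nerves. It was lower in 2-month cKO nerves by 1.03 (limma adjusted p = 0.00395), with a change of -0.16 at P10 (adjusted p = 0.688), and was higher at 2 months than at P10 by 1.24 in cKO nerves (adjusted p = 0.000413) and by 2.11 in control nerves (adjusted p = 9.78e-07). As for *Cpa3*, cKO replicate 2 was the highest and replicate 1 the lowest of the 2-month cKO arrays, and control replicate 4 the highest and replicate 1 the lowest of the controls, a likeness that was seen after the values were known. At P10 the lowest cKO and the highest control array of *Mrgprb1* were both replicate 2, and those of *Cpa3* were both replicate 3. The P10 values of *Mrgprb1* were dim, which limits what can be seen of its genotype difference there and of its rise with age. *Mrgprb2*, the receptor through which mouse connective tissue mast cells answer to basic peptides, was higher at 2 months than at P10 by 0.47 in cKO nerves (adjusted p = 0.0481) and by 0.56 in control nerves (adjusted p = 0.0199). *Mrgprb2* was dim, at 3.62 to 4.42 in cKO nerves and 4.05 to 4.44 in control nerves at 2 months. Between genotypes it was not called, at -0.23 at 2 months and -0.14 at P10. Neither receptor was refitted without single arrays.

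**Figure D4:**
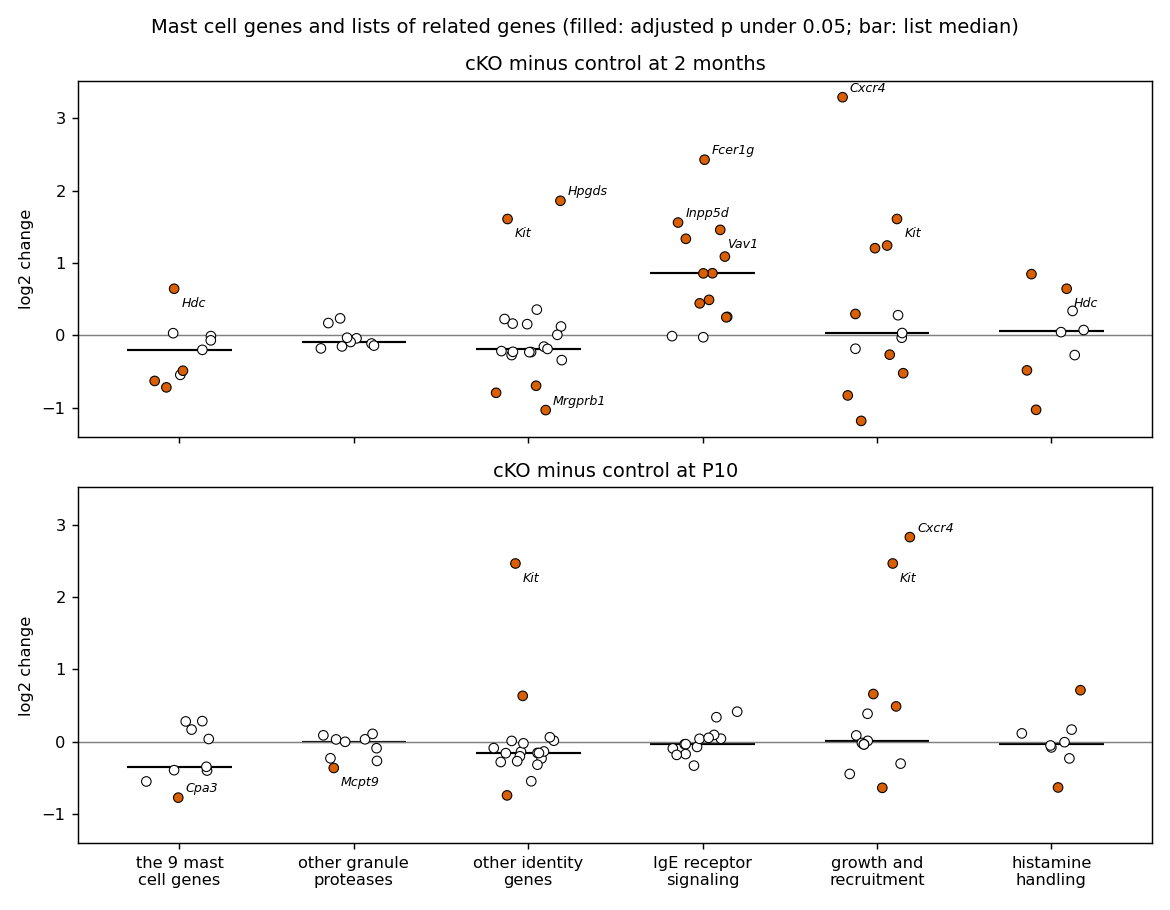
Log2 change (vertical axis) of each gene of the 9 mast cell genes and of 5 related lists, cKO minus control at 2 months (top) and P10 (bottom); filled points passed an adjusted p under 0.05, bars are list medians, and a gene can stand in more than 1 list. At 2 months 10 of the 13 IgE receptor signaling genes were called higher and none lower, and at P10 none was called.

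Downstream of the IgE receptor, 10 of 13 signaling genes measured were higher in cKO nerves at 2 months and none lower, with a median change of 0.86, and none of the 13 was called at P10 (limma; median -0.03). *Fcer1g*, the gamma chain that the IgE receptor shares with other Fc receptors, was at 9.35, 8.98, 8.99 and 8.97 in cKO nerves, against 6.41, 6.88, 6.16 and 7.12 in control nerves at 2 months, higher by 2.43 (adjusted p = 7.51e-08). The lipid phosphatase gene *Inpp5d* was higher by 1.56, *Vav1*, an exchange factor, by 1.46 and *Lcp2*, an adaptor, by 1.34. These genes are used by macrophages and other leukocytes too, and macrophage markers were higher in the same nerves by the levels given above. The part of these cells in the 10 calls was not tested. The mast cell chains *Ms4a2* and *Fcer1a* themselves were not called in 2-month cKO nerves, but both were dim, which limits what can be seen of them.

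Among 13 genes for growth and recruitment of mast cells, 5 were higher and 4 lower at 2 months, and 4 were higher and 1 lower at P10. *Kitl*, which encodes stem cell factor, was lower in 2-month cKO nerves by 0.27 (limma adjusted p = 0.0319). At P10 the change of *Kitl* was -0.30 (adjusted p = 0.0522), just short of the call. *Kitl* was higher at 2 months than at P10 by 0.71 in cKO nerves and by 0.67 in control nerves. *Il33*, an alarmin that activates mast cells, was lower in 2-month cKO nerves by 0.83 (adjusted p = 3.6e-06), with a change of -0.44 at P10 (adjusted p = 0.0962). *Il33* was higher at 2 months than at P10 by 1.04 in cKO nerves and by 1.42 in control nerves. The chemokine *Cxcl12* was lower by 1.18 at 2 months and by 0.64 at P10, and its receptor *Cxcr4* was higher by 3.29 and 2.83. The growth factor gene *Tgfb1* was higher by 1.24 at 2 months and by 0.49 at P10. These are levels of whole nerve, and which cells gave the signals of the 13 genes was not tested.

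Of 8 genes for the handling and sensing of histamine, *Hdc* included, 2 were higher and 2 lower at 2 months, and 1 was higher and 1 lower at P10. *Hnmt*, the methyltransferase that inactivates histamine inside cells, was lower in cKO nerves by 1.03 at 2 months (limma adjusted p = 1.17e-05) and by 0.63 at P10 (adjusted p = 0.0449). *Aoc1*, the diamine oxidase that degrades histamine outside cells, was higher by 0.85 at 2 months and by 0.71 at P10. *Hrh4*, a histamine receptor of leukocytes, was lower by 0.48 at 2 months. The genes for making histamine and for its oxidation were thus higher in 2-month cKO nerves, and that for its methylation was lower.

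Markers of fibroblasts and of fat cells were also lower in cKO nerves. Of 7 fibroblast markers, 5 were lower and 1 higher at 2 months and 3 were lower at P10, with a mean level at 2 months of 10.08 to 10.40 in cKO nerves and 10.79 to 11.21 in control nerves. Of 5 adipocyte markers, 4 were lower at 2 months and 5 at P10, with a mean level at P10 of 6.92 to 7.08 in cKO nerves and 8.0 to 8.72 in control nerves. Of 5 Schwann cell markers measured, 2 were higher and 2 lower at 2 months, and 1 was higher and 2 lower at P10. No skeletal muscle marker of 10 was called between genotypes. How much of the lower protease levels goes with the amount of sheath or fat on the nerves was not tested.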

How the data were processed

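RNA of 16 mouse sciatic nerve samples was measured on Clariom S arrays. The authors summarized the scans by RMA with the Transcriptome Analysis Console (version 4.0.2.15), and the deposited values are log2 values of 22206 transcript clusters, which were not normalized again. Of these, 19572 carry a gene symbol and 2634 do not. They give 19505 genes, 55 of them on several clusters and then read from the brightest one, and each of the 9 mast cell genes lies on 1 cluster. The scans were not used, so background was not measured, and precision is limited by having 4 arrays per group. The genome build of the array annotation is not given in the sources used here.

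In R 4.3.3, limma 3.58.1 (lmFit, eBayes with an intensity trend) was fitted to the 8 arrays of each age for genotype, and to all 16 arrays with 4 group means for age and the interaction, with Benjamini-Hochberg adjustment over 19505 genes. The study's permutation tool was not available, and its choice of the 5000 most variable clusters was an alternative, as were median centring, quantile normalization, no trend, array weights, leaving out the dimmest 25% of genes, all clusters, 1 fit for all arrays, the replicate number as a block, and leaving out each array. The fits were tested on simulated data in which genes varied independently of each other. Differences between arrays that many genes share were not part of that simulation. Errors are SD or limma's standard error.

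The 9 genes and the 14 lists beside them (132 genes) were chosen with earlier results of these data known. All 9 genes are named, and from each list up to 4 genes with the smallest p in a comparison, besides those named for their level or role. Genes not found under their symbol (*Il1rl1*, *Lyn* and others) were not analysed here. Likeness was Pearson's r of deviations from group means. Promoter sequences are from RefSeq.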

Additional observations from a re-analysis of the deposited data

Results flagged for a closer look

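No value of the 9 mast cell genes stood apart within its group, and no interaction of theirs was called. Among *Kit*, *Mrgprb1*, *Hpgds*, *Fcer1g*, *Becn1* and the 9 genes, 4 of 56 groups of 4 arrays held an array far from the others, and chance alone flags about 1 in 20. *Kit* in cKO 2 months replicate 1 was low at 7.81, with a gap of 0.873 of the range of its group. *Mrgprb1* was low at 3.93 in cKO P10 replicate 2 (gap 0.896 of the range) and high at 5.0 in control P10 replicate 2 (gap 0.858). *Fcer1g* was high at 9.35 in cKO 2 months replicate 1 (gap 0.938).

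The difference between cKO and control nerves changed with age for 12 of 68 genes of the 9 and the related lists (limma interaction, adjusted p under 0.05 over all genes), where 12.3% of all genes were called. The change at 2 months minus that at P10 was above 0 for *Fcer1g* (2.01), *Inpp5d* (1.52), *Vav1* (1.36), *Il4ra* (1.24), *Hpgds* (1.23), *Grap2* (1.04), *Lcp2* (1.00), *Btk* (0.95), *Plcg2* (0.93) and *Tgfb1* (0.75). It was below 0 for *Kit* (-0.855) and *Cxcl12* (-0.54). Macrophage markers were higher in 2-month cKO nerves, and their part in these interactions was not tested.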

How the results depend on the processing

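With all 16 arrays in 1 fit, 2 of the 9 genes were called lower at P10 in place of 1, *Cma1* being added. Leaving out single arrays, between 0 and 2 genes were lower at P10, 2 to 5 lower and 1 higher at 2 months, 4 to 5 higher with age in cKO nerves and 3 to 5 in control nerves, and 0 had a called interaction. Values near 0 changed sign, none of them called. *Cma1* at 2 months was 0.0583 after quantile normalization and -0.0628 to 0.0304 without single arrays, and *Tpsab1* at 2 months was 0.0081 after quantile normalization and -0.1491 to 0.0305 without single arrays. *Fcer1a* was -0.0058 at 2 months and -0.0076 with age in cKO nerves under array weights, and -0.0371 to 0.1367 and -0.0267 to 0.1293 without single arrays. Without single arrays *Ms4a2* at P10 was -0.1185 to 0.1561 and the interaction of *Mcpt4* -0.4242 to 4e-04. *Cpa3* at 2 months, beside the arrays named above, was called after quantile normalization (adjusted p = 0.0375), under array weights (0.035), without the dimmest genes (0.0462) and among the 5000 most variable clusters (0.0456). With those clusters alone the counts over all genes were 1865 higher and 1815 lower at 2 months, 1844 and 1491 with age in cKO nerves and 1720 and 1618 in control nerves, against 3600 and 3022, 3137 and 2698, and 2696 and 2961 over all genes, fewer genes being tested. Interaction calls split as 1499 higher and 895 lower, 1348 and 931 after centring and 1228 and 1085 after quantile normalization. *Cma1*, *Tpsab1*, *Ms4a2* and *Fcer1a* were left out by the filters on dim and on variable genes, and *Gata2* by the latter. A mean over several clusters could not be run, since each of the 9 genes lies on 1. Arrays with the same replicate number correlated at -0.15 to 0.19, 4 of 16 over 0.1, and 6 correlated best with their own number. Whether the numbers pair the samples is not settled by these correlations. With the number as a replicate block *Cpa3* was called at 2 months (adjusted p = 0.0122), no other call of the 9 changed, and 920 genes were higher and 1324 lower at P10. The dimness of *Ms4a2*, *Tpsab1*, *Fcer1a* and *Cma1* limits what can be seen of them, and signal over background was not measured.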
